A study of Mus musculus with 24 samples.

Results

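The genes described are 10 genes of natural killer (NK) cells and cytotoxic lymphocytes, measured with 11 probes among 32451 genes or transcripts on arrays of CD11b+ cells from mice. They are the receptors Klrd1, Klrg1, Ncr1 and Il2rb, the transcription factors Tbx21 and Eomes, the granule proteins Gzma, Gzmb and Prf1, and the chemokine Ccl5. The genes were chosen by their known role and with their levels on these same arrays, by tissue, genotype and time, already seen, so their own values are a description and carry no test. Tests were read on 53 further NK and cytotoxic genes, out of 56 listed. That list was also chosen with earlier results of these data known, and its p-values carry that limit.

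The cells came from wild-type (WT) mice, from mice lacking histidine decarboxylase (HDC-KO), the enzyme that makes histamine, and from mice lacking STAT6 (STAT6-KO), a transcription factor of IL-4 and IL-13 signalling. CD11b+ cells were taken from the spleen and from the bone marrow of male Balb/C mice aged 10 weeks, without infarction (control) and at 1, 2 and 4 weeks after myocardial infarction (MI). Each condition was 1 array made from the cells of 5 pooled mice, so no condition had a replicate. Of 24 arrays, 22 were used, and those of STAT6-KO bone marrow at 1 week and of the HDC-KO control spleen were left out, as both held too few spots to be scaled and no spot of these 10 genes.

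NK cells kill infected or altered cells without prior sensitisation, by releasing perforin and granzymes from granules. Their maturation depends on IL-15, which signals through Il2rb, and on the T-box factors Eomes and T-bet (Tbx21). Mature mouse NK cells carry CD11b on their surface, whereas most CD11b+ cells of spleen and marrow are granulocytes and monocytes.

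A level is given here as log2 of the spot signal minus the 75th percentile of its array, so that 0 is the signal of the 75th percentile spot. A level of a gene is compared between arrays and not with that of another gene. The 75th percentile ranged from 927.9 to 2461 in spleen and from 963.4 to 1780 in bone marrow, and between 70.43% and 79.8% of spots were well above background. All 10 genes were well above background on all 22 arrays by their main probe. Where a probe had copies on the array (399 probes), these differed on the same array by a median SD of 0.08 log2 units (0.06 to 0.12 over the arrays), and none of the 10 genes was among them. Hdc was lower in HDC-KO, at 1.67 to 1.93 in spleen against 4.32 to 4.83 in WT, and at 2.32 to 2.78 in bone marrow against 4.75 to 5.51 in WT. Stat6 by its main probe was at 1.94 to 2.44 in STAT6-KO spleen and at 2.38 to 2.90 in WT spleen, which overlap, and at 1.76 to 2.34 in STAT6-KO bone marrow against 2.78 to 3.70 in WT. Itgam, which encodes CD11b, was at 3.52 to 4.83 in spleen and at 5.10 to 5.85 in bone marrow.

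RefSeq promoters (GRCm38.p6) were at hand for 6 of the 10 genes (Tbx21, Eomes, Gzma, Gzmb, Prf1 and Ncr1). Those of 4 are shown, over the 250 bases before the start of transcription, 5′ to 3′ on the strand of the gene: those of Gzma, Gzmb and Ncr1, whose levels moved together, hold the only motif matches, and that of Prf1 belongs to the gene whose levels ran apart. The windows of Tbx21 and Eomes, which moved with the others, hold no match either and are not shown. Capitals mark TGTGGTT, the RUNX motif, or its reverse complement.
Gzma, chr13:113100982-113101231, minus strand: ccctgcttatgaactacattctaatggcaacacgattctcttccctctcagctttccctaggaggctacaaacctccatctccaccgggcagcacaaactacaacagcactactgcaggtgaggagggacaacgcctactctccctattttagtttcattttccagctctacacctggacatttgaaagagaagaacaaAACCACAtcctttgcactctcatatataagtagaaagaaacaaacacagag
Gzmb, chr14:56262335-56262584, minus strand: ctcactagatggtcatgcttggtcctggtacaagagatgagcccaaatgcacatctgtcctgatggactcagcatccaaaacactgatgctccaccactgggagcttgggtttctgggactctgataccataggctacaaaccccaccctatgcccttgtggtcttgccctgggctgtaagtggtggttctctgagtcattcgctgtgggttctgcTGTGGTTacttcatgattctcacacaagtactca
Ncr1, chr7:4337465-4337714, plus strand: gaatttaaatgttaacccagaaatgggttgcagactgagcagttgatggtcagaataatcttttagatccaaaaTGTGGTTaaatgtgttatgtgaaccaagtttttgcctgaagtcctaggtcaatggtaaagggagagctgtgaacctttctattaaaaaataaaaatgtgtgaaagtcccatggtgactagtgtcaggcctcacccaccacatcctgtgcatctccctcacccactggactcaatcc
Prf1, chr10:61297586-61297835, plus strand: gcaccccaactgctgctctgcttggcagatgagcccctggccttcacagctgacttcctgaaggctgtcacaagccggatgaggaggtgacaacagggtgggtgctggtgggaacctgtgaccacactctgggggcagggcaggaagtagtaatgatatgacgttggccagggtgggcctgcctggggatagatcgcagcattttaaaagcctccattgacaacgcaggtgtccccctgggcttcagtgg
The RUNX motif was found in 3 of the 6 promoters, in 11 of the 46 further genes with a promoter at hand, and in 4.4% of all 32851 promoters. A link between the motif and the levels was not tested. The match lay 51 to 45 bases before the start in Gzma, 34 to 28 in Gzmb and 176 to 170 in Ncr1, counted from the first of its 2 listed starts. The T-box motif GGTGTGA (3.33% of all promoters), the STAT motif of TTC and GAA spaced by 3 bases (7.02%) and the STAT6 motif of TTC and GAA spaced by 4 bases (5.85%), searched on both strands, were found in none of the 6 windows.

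The first comparison set spleen against bone marrow, over the 10 combinations of genotype and time with an array in both. Arrays with the same scan date in their header were taken as a slide. No slide held both tissues, so tissue and slide cannot be told apart. The pairs of a genotype came from the same slides, while the fit took the pairs as independent. Of the 10 genes, 9 were higher in spleen in 10 of 10 pairs, by 5.31-fold (Eomes) to 33.1-fold (Klrg1), and Prf1 was not. The median difference of the 10 genes was 3.22 log2 units (9.35-fold), beside -0.17 over all genes tested. In the fit 9 of the 10 genes were called at an adjusted p under 0.05, where 54.5% of all genes were called, and nothing is read from that count.

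Among the receptors, Klrg1, an inhibitory receptor of mature NK cells and effector T cells, ranged from -0.56 to 1.85 (median 0.93) over the 11 spleen arrays and from -5.11 to -3.30 (median -4.22) over the 11 bone marrow arrays. The ranges lay 2.74 log2 units apart, and the fitted difference was 5.05 ± 0.14 (SE). It was the member with the widest gap between the tissues. Klrd1, the CD94 chain that pairs with NKG2 receptors, ranged from -1.73 to 0.18 (median -0.46) in spleen and from -5.32 to -2.75 (median -3.86) in bone marrow. Its difference of 3.40 ± 0.08 varied least among the pairs, from 3.25 to 3.61. Ncr1, the activating receptor NKp46 and a defining marker of NK cells, ranged from -2.29 to 0.18 (median -0.79) in spleen and from -5.12 to -2.66 (median -3.52) in bone marrow, a difference of 2.99 ± 0.12. Il2rb, the chain shared by the IL-2 and IL-15 receptors, ranged from -0.55 to 2.06 (median 0.84) in spleen and from -3.25 to -1.40 (median -1.87) in bone marrow, a difference of 3.05 ± 0.15. For all 4 receptors the lowest spleen array lay above the highest bone marrow array.

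Of the transcription factors, Tbx21 (T-bet) had its lowest spleen array at -1.22 and its highest at 1.501 (median 0.56) and ranged from -3.75 to -2.50 (median -3.13) in bone marrow, and its difference was 3.76 ± 0.11. Eomes ranged from -3.31 to 0.08 (median -1.06) in spleen and from -4.40 to -2.75 (median -3.26) in bone marrow, and its difference was 2.41 ± 0.17. The ranges of Eomes overlapped by 0.56 log2 units, since the array of STAT6-KO spleen at 1 week, at -3.31, lay within the bone marrow range. The second Eomes probe was also higher in spleen, with no overlap, from -3.88 to -0.60 in spleen and from -6.21 to -4.17 in bone marrow, and was not well above background on the array of WT bone marrow at 1 week.

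Of the granule genes, Gzma (granzyme A) ranged from 1.60 to 4.79 (median 3.92) in spleen and from -0.75 to 1.35 (median 0.86) in bone marrow, a difference of 3.45 ± 0.12. Gzmb (granzyme B) ranged from -1.71 to 1.06 (median -0.38) in spleen and from -4.25 to -1.84 (median -3.03) in bone marrow, a difference of 2.69 ± 0.16. Both granzymes had no overlap between the tissues, although the gap was narrow, at 0.25 for Gzma and 0.13 for Gzmb. Prf1 (perforin), the pore former that lets granzymes into a target cell, ranged from -2.15 to -0.72 (median -1.41) in spleen and from -2.07 to -1.04 (median -1.57) in bone marrow. Its difference was 0.15 ± 0.18, with 5 pairs higher and 5 lower in spleen. The single Prf1 probe thus gave nearly the same range in both tissues, and its span was the smallest of the 10 genes in each tissue (1.43 log2 units in spleen and 1.03 in bone marrow). Ccl5 (RANTES), a chemokine stored and secreted by NK cells and memory T cells, ranged from 2.55 to 4.70 (median 4.24) in spleen and from -0.79 to 1.05 (median 0.46) in bone marrow, a difference of 3.78 ± 0.09. In all, 8 of the 10 genes had every spleen array above every bone marrow array, as had 5.92% of the 27659 genes tested.

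**Figure D1:**
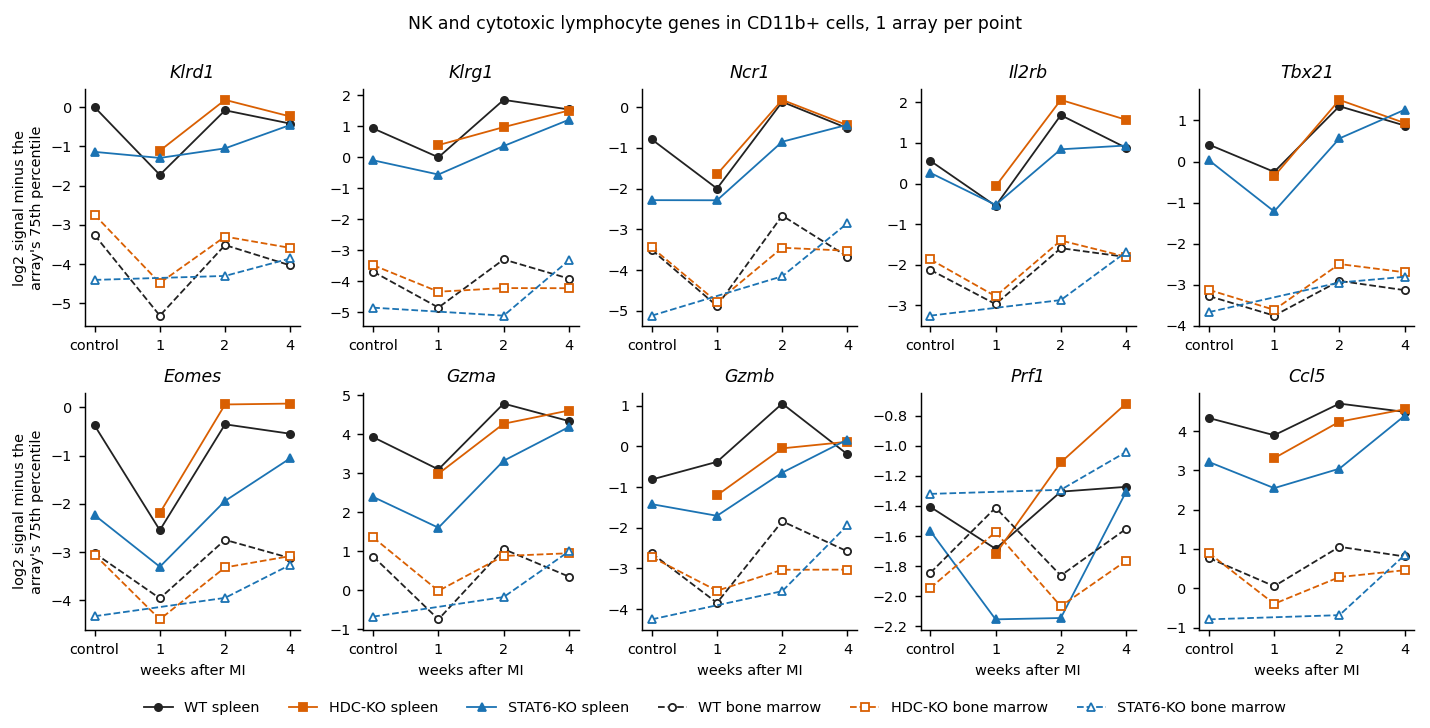
Level of each of the 10 genes (log2 signal minus the 75th percentile of the array) against time after MI, with the time points evenly spaced, 1 array per point and thus no error bar; filled symbols and solid lines are spleen, open symbols and dashed lines bone marrow, and the line of STAT6-KO bone marrow passes over the missing 1-week array. For 8 genes all spleen points lie above all bone marrow points; Eomes overlaps by 0.56 and Prf1 runs within the same range in both tissues.

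**Figure D2:**
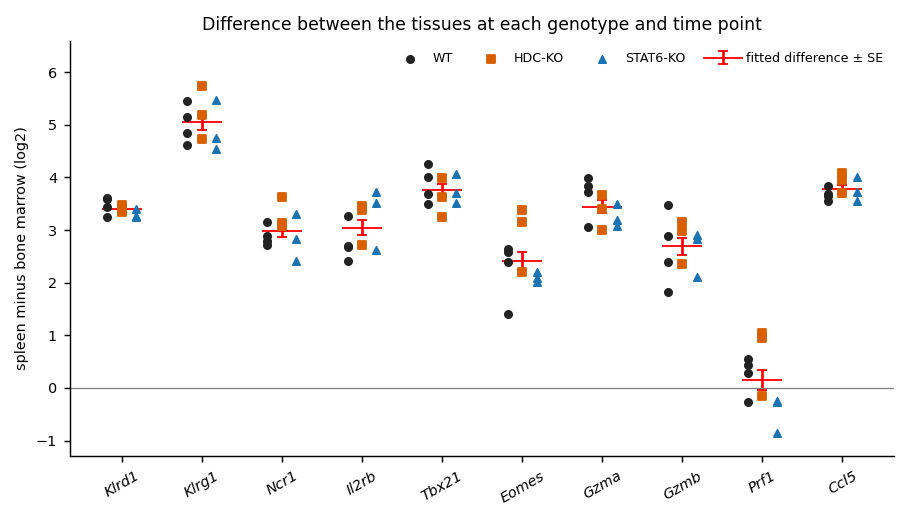
Spleen minus bone marrow (log2) for each of the 10 genes at the 10 combinations of genotype and time, with the fitted difference ± SE in red. Klrg1 sits highest at 5.05 ± 0.14 and Prf1 lies around 0 at 0.15 ± 0.18.

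The cells were a mixture, so fewer cells of a type and less RNA per cell cannot be told apart in these values. Lymphocyte markers outside the 10 genes also differed between the tissues. Of 10 T cell markers, 8 were higher and 1 was lower in spleen (limma, adjusted p under 0.05), and of 8 B cell markers 7 were higher. Of all genes 54.5% were called. The median level of the T cell markers had no overlap, like 8 of the 10 genes, at -1.50 to 1.95 in spleen and -3.32 to -2.05 in bone marrow. Their summed level, which is weighted to the brightest markers, overlapped, at 3.07 to 4.95 and 3.802 to 4.61. The T cell sum is therefore not read as a like T cell content of the tissues. The summed level of the B cell markers was 4.35 to 6.39 in spleen and 0.98 to 5.40 in bone marrow. All 8 B cell markers and 9 of the 10 T cell markers were well above background on all 22 arrays, and Themis was not on 2 arrays of HDC-KO bone marrow. Of 7 myeloid markers 1 was higher and 4 were lower in spleen, and their summed level was 7.51 to 8.42 in spleen and 8.01 to 8.74 in bone marrow. Of 4 NK cell markers 3 lay higher in spleen in the fit, among them Ncr1 and Eomes, which belong to the 10 genes and carry no test. The other, the receptor Klre1, had a median of -2.64 in spleen and of -2.15 in bone marrow. The summed level of the 4 was -1.26 to 1.46 in spleen against -2.19 to -0.90. Of 6 interferon-induced genes 1 was called, higher in spleen. The part of these cell types in the difference between tissues was not tested.

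Among the 53 further NK and cytotoxic genes, 33 were higher and 7 lower in spleen (limma, adjusted p under 0.05), 75.5% of the list beside 54.5% of all genes, with a median difference of 0.99. All 6 signalling genes tested were higher in spleen, as were 10 of 18 receptors and 6 of 8 transcription factors, while 2 receptors and 1 transcription factor were lower. The largest increases were of Gata3, a transcription factor of T cells and innate lymphocytes, by 3.98 ± 0.19 (adjusted p = 3.67e-08), Sh2d1a, the adaptor SAP, by 3.92 ± 0.18 (adjusted p = 2.76e-08), Txk, a kinase of T and NK cells, by 3.91 ± 0.24 (adjusted p = 1.89e-07), and Ifng, interferon gamma, by 3.70 ± 0.23 (adjusted p = 2.00e-07), each in 10 of 10 pairs. Tigit, counted among the receptors that were higher, was well above background on no bone marrow array.

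Of the 7 genes that were lower in spleen, 3 act in the docking and release of granules. Rab27a, which docks granules, was lower, a difference of -1.48 ± 0.16 (adjusted p = 1.18e-05), Stx11, a fusion protein, one of -1.56 ± 0.16 (adjusted p = 7.74e-06) and Unc13d, which primes granules, one of -1.01 ± 0.14 (adjusted p = 6.50e-05), each in 10 of 10 pairs. Il18rap, a chain of the IL-18 receptor, differed by -1.57 ± 0.14 (adjusted p = 2.72e-06), with a range of -1.88 to -0.18 in spleen and of 0.35 to 1.31 in bone marrow. Rab27a, Stx11 and Unc13d also serve granules of myeloid cells. Of the granule and killing genes 6 of 11 were higher and 3 lower, so that Fasl and Serpinb9, for example, moved opposite to the docking genes.

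**Figure D3:**
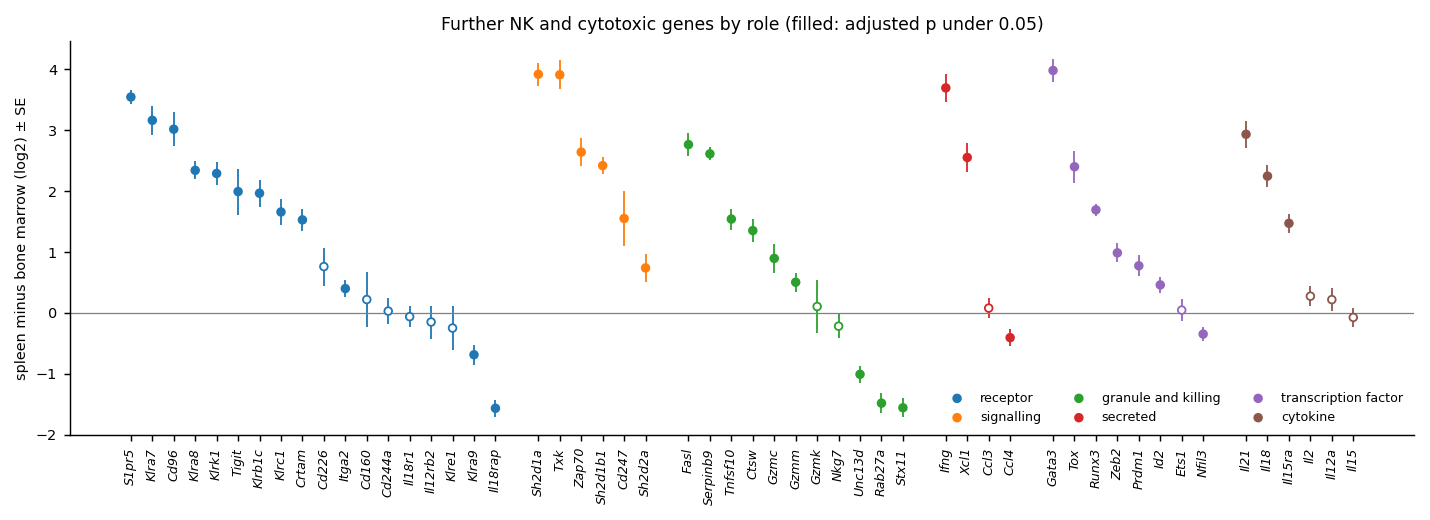
Spleen minus bone marrow (log2, ± SE from the limma fit) for the 53 further NK and cytotoxic genes, sorted within 6 roles, with filled symbols for an adjusted p under 0.05. Signalling genes are all above 0, and Il18rap, Stx11, Rab27a and Unc13d lie lowest, at -1.57 to -1.01.

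The 10 genes were also followed together, as the mean of their levels after each gene was centred over the 22 arrays. In that order the 11 spleen arrays came before the 11 bone marrow arrays. WT spleen at 2 weeks (2.38), HDC-KO spleen at 2 weeks (2.23) and HDC-KO spleen at 4 weeks (2.20) stood highest, and STAT6-KO spleen at 1 week (0.11) stood lowest in spleen. In bone marrow WT at 2 weeks (-0.83) and STAT6-KO at 4 weeks (-0.89) stood highest, and WT at 1 week (-2.17) and STAT6-KO control (-2.26) lowest. With 1 array per condition, neighbours in this order cannot be told apart by a replicate spread.

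Without Prf1, the genes rose and fell together across conditions. Over the 36 pairs among the other 9 genes, Pearson's r over 22 arrays had a median of 0.96 (0.89 to 0.99), which includes the difference between the tissues. With each gene centred within each tissue the median r was 0.85 (0.60 to 0.92). The arrays share a scale set by 1 percentile each, and r is given as a description. Prf1 followed the others in spleen, with r from 0.64 to 0.86, and ran against them in bone marrow, with r from -0.66 to -0.23 over 11 arrays.

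Of 16643 other genes with a symbol that were well above background on at least 11 arrays, those most like the mean of the 10 genes over the 22 arrays were Adamts14 (r = 0.98), Sh2d1a (0.98), Cd7 (0.97), Ms4a4b (0.97), Sytl3 (0.97), Lck (0.97), Serpinb9 (0.97) and Runx3 (0.96). With the tissues centred, the nearest were Adamts14 (r = 0.93), Klra4 (0.90), Sh2d1a (0.88), Rgs13 (0.87), Nrarp (0.87), Pim2 (0.86), Sytl3 (0.85) and Ifng (0.84). Adamts14, Sh2d1a and Sytl3 were in both sets. Adamts14, a metalloprotease that trims procollagen, ranged from -2.72 to 0.51 in spleen and from -4.61 to -3.03 in bone marrow. Within tissues 4 of 51 further NK and cytotoxic genes and 0.12% of all genes ranked had an r over 0.8, and the median r was 0.43 for the list and 0.0049 for all genes.

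The second comparison concerned the time after MI. Averaged over 1, 2 and 4 weeks, the 10 genes had a median difference from control of 0.17 in spleen (-0.08 over all genes) and of -0.03 in bone marrow (0.02 over all genes), with 0 of the 10 called in either. Over all genes 1 gene (0.00378%) was called in spleen and 0 (0.0%) in bone marrow by limma, with 4167 and 4530 at an unadjusted p under 0.05. Of the further genes none was called in either tissue, with 9 of 53 and 11 of 51 at an unadjusted p under 0.05. The average covered levels that were low at 1 week and higher later. At 1 week the median difference was -0.66 in spleen and -0.78 in bone marrow, at 2 weeks 0.70 and 0.10, and at 4 weeks 0.68 and 0.36. In bone marrow the mean of the 10 centred genes at 4 weeks was above control in STAT6-KO alone (-0.89 against -2.26). That mean was below control in WT (-1.26 against -1.17) and in HDC-KO (-1.23 against -1.01).

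At 1 week after MI, 9 of the 10 genes were below control in each tissue in the fit. Of all genes well above background on either array, 14713 of 25484 were below control in WT spleen and 15837 of 25168 in STAT6-KO spleen. In bone marrow 9796 of 25000 were below control in WT and 11906 of 26270 in HDC-KO. Eomes in WT spleen was at -0.38 in control, -2.55 at 1 week, -0.35 at 2 weeks and -0.55 at 4 weeks. In HDC-KO spleen Eomes was at -2.19, 0.06 and 0.08 at 1, 2 and 4 weeks, and in STAT6-KO spleen at -2.24, -3.31, -1.94 and -1.06 from control to 4 weeks. The 1-week array was the lowest of each of these 3 series. Gzma in WT spleen was at 3.92 in control and at 3.10, 4.79 and 4.34 at 1, 2 and 4 weeks, and in WT bone marrow at 0.86 in control and at -0.75, 1.05 and 0.35. Klrd1 in WT bone marrow was at -3.26 in control and at -5.32, -3.52 and -4.04 at 1, 2 and 4 weeks, and in HDC-KO bone marrow at -2.75, -4.48, -3.30 and -3.59. Both genes were lowest at 1 week in these series and higher again at 2 weeks.

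The same shape was counted over all 10 genes. The 1-week array was the lowest of the series for 9 genes in WT spleen, 10 in HDC-KO spleen (of 3 arrays), 10 in STAT6-KO spleen, 9 in WT bone marrow and 9 in HDC-KO bone marrow. Over all genes well above background at 1 and 2 weeks, that share was 31.3%, 40.2%, 23.9%, 20.8% and 22.3%. The exceptions were Gzmb in WT spleen (-0.38 at 1 week against -0.81 in control) and Prf1 in both bone marrow series. From 1 to 2 weeks, a comparison chosen after its values were seen, all 10 genes were higher in each of the 3 spleen series, by a median of 1.67 in WT, 1.29 in HDC-KO and 1.21 in STAT6-KO, and 9 of 10 in each of the 2 bone marrow series, by a median of 1.47 in WT and 0.99 in HDC-KO. Over all genes the median of this difference was between -0.18 and 0.00.

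Against control in the fit at 1 week, Eomes was lower in spleen by 1.69 ± 0.32 on the log2 scale (3.22-fold) and Il2rb by 1.01 ± 0.23 (2.01-fold). They were the 2 of the 10 genes called, where 7.9% of all genes were called. As the 10 genes were chosen with their values seen, nothing is read from these calls. Klrd1 was lower by 0.96 ± 0.36 in spleen and by 1.69 ± 0.33 in bone marrow (3.22-fold), where none of the 10 genes was called and 0.148% of all genes were. At 2 weeks in spleen Gzmb was at 1.27 ± 0.41 and Ncr1 at 1.24 ± 0.34 above control, with none of the 10 genes called and 2.25% of all genes called. Only 2 spleen series had a control array, and the median of the 10 genes at 1 week was -0.88 in WT and -0.63 in STAT6-KO.

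Of the 53 further genes, 10 fell in spleen at 1 week and none rose (limma, adjusted p under 0.05), where 7.9% of all genes were called. Each of the 10 was lower in 2 of 2 series with a control, and the median of the list was -0.66. The largest falls among those well above background on all 11 spleen arrays were of Cd160, a receptor of NK and T cells, by 2.27 ± 0.46 (adjusted p = 0.029), Txk by 2.23 ± 0.34 (adjusted p = 0.013) and Gata3 by 1.91 ± 0.31 (adjusted p = 0.015). Cd247, the CD3 zeta chain, was not well above background at 1 week in either spleen series that has a control. It was at least 2.21-fold lower there than in the 2 controls, a bound with no test of its own. The adjusted p of 0.036 (limma) belongs to the fitted difference of Cd247, which rests partly on background signal. The others were Sh2d1a, Tox, Fasl, Zap70, Ifng and Prdm1. In bone marrow 1 of 51 fell, where 0.148% of all genes were called. It was Cd226 (DNAM-1, an activating receptor), which was not well above background on either 1-week array. Cd226 was at least 5.74-fold lower there than in control, a bound with no test of its own. The adjusted p of 0.022 (limma) belongs to the fitted difference of Cd226, which rests partly on background signal. None of the further genes was called at 2 or 4 weeks in either tissue (limma), with 14 and 4 at an unadjusted p under 0.05 in spleen and 5 and 9 in bone marrow.

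Other lists moved at 1 week as well. In spleen all 10 T cell markers (median -1.61) and all 8 B cell markers (median -0.69) were below control in the fit, and all 6 interferon-induced genes were above (median 1.89). The summed T cell level on the 3 spleen arrays at 1 week was 3.07 to 3.42, against 3.84 to 4.17 in the 2 controls. In bone marrow all 8 B cell markers were below control in the fit (median -2.39), 5 of 10 T cell markers were, and all 6 interferon-induced genes were above (median 1.91). The series differed there, as the summed interferon level rose from 5.12 in control to 7.92 at 1 week in WT. In HDC-KO bone marrow it fell from 5.18 to 4.78. The summed B cell level in bone marrow was 0.98 to 2.81 at 1 week and 2.75 to 5.40 in control. The summed myeloid level was 7.66 to 8.11 at 1 week and 7.93 to 8.33 in control spleen, and 8.39 to 8.56 and 8.05 to 8.57 in bone marrow. The part of these lists in the low values was not tested. Time also coincided with the position of the array on its slide, so the 2 cannot be told apart.

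**Figure D4:**
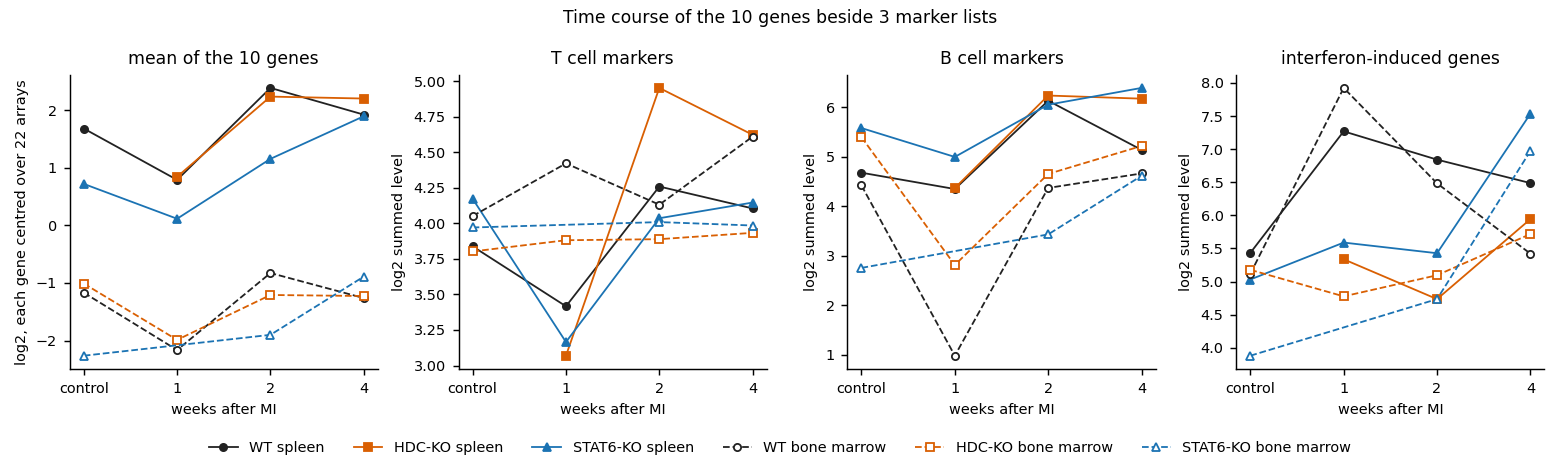
Left, mean of the 10 genes (log2, each centred over the 22 arrays) against time after MI, 1 array per point, time points evenly spaced. Right, the log2 summed level of T cell markers, B cell markers and interferon-induced genes on the same arrays, a sum weighted to the brightest genes of a list. The 10 genes are lowest at 1 week in all 5 series that hold that array, while the interferon-induced genes of WT peak there at 7.27 in spleen and 7.92 in bone marrow.

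The third comparison set STAT6-KO against WT. In spleen all 10 genes were lower in STAT6-KO in the fit, by 0.26 (Il2rb) to 1.18 (Eomes) on the log2 scale, with a median of -0.74 beside -0.06 over all genes. None of the 10 was called, where 1.95% of all genes were. Eomes was lower by 1.18 ± 0.24 (2.26-fold) and Gzma by 1.16 ± 0.24 (2.24-fold). Ccl5 was lower by 1.05 ± 0.24 (2.08-fold) and Klrg1 by 0.85 ± 0.22 (1.80-fold). These 4 and Prf1 were lower at 4 of 4 time points, although Prf1 differed by only -0.03 at 4 weeks.

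The difference was not even over time. The median of the 10 genes was -1.07 in control, -0.66 at 1 week, -1.22 at 2 weeks and -0.03 at 4 weeks. All 10 genes were below WT in control and at 2 weeks, 8 at 1 week and 6 at 4 weeks. Gzma, for example, was at 2.39 in STAT6-KO control against 3.92 in WT, at 1.60 against 3.10 at 1 week, at 3.32 against 4.79 at 2 weeks and at 4.18 against 4.34 at 4 weeks. Ccl5 was at 3.21, 2.55, 3.04 and 4.39 in STAT6-KO from control to 4 weeks, and at 4.33, 3.89, 4.70 and 4.49 in WT. At 4 weeks the difference had narrowed to -0.15 for Gzma and -0.10 for Ccl5. Without the STAT6-KO array at 4 weeks, which had the lowest 75th percentile (927.9), the median difference was -0.96.

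In bone marrow 9 of the 10 genes were below WT in the fit, with a median of -0.71 beside 0.07 over all genes, and again the 4-week arrays differed from the rest. The median was -1.23 in control and -1.26 at 2 weeks, with 9 of 10 genes below WT at both, and 0.42 at 4 weeks, with 1 of 10 below. Ncr1 was at -5.12 in STAT6-KO control, -4.15 at 2 weeks and -2.85 at 4 weeks, and at -3.50, -2.66 and -3.67 in WT. It thus lay below WT at the first 2 of these times and above WT at the last. In the fit Ccl5 was 2.15-fold and Eomes 1.88-fold lower than in WT. Prf1 was the exception, higher by 0.54 ± 0.12 (1.45-fold) at each of 3 time points (0.51 to 0.57), and the 1 gene of the 10 that was called, where 4.61% of all genes were. Nothing is read from that call, as the 10 genes were chosen with their values seen. The call was lost in 9 of 14 alternatives, among them the 4 that each left out 1 time point.

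Of the further genes none was called in STAT6-KO spleen (0 of 53; 11 at an unadjusted p under 0.05, limma), and their median was -0.09. In STAT6-KO bone marrow 2 of 51 rose (limma), 3.92% of the list beside 4.61% of all genes called, so nothing is read from the count. Prdm1 (Blimp-1), a transcription factor of terminal differentiation, rose by 1.44 ± 0.14 (adjusted p = 0.0035). Cd244a (2B4), a receptor of NK and myeloid cells, rose by 0.81 ± 0.13 (adjusted p = 0.021). Both were higher at 3 of 3 time points, and the median of the list was -0.05. Prdm1 was at -0.89 to -0.44 in STAT6-KO bone marrow and at -2.15 to -1.89 in WT. Neither call held without the control arrays or without those at 2 weeks, and that of Cd244a was also lost without those at 4 weeks. B cell markers lay above WT in STAT6-KO spleen (8 of 8, median 0.61) and below in STAT6-KO bone marrow (8 of 8, median -0.57, 1 called), and interferon-induced genes lay below WT in both (6 of 6, medians -0.87 and -1.15). Of the 10 T cell markers 7 lay above WT in each tissue (medians 0.26 and 0.17), with 1 called in spleen and 2 in bone marrow, all higher. The summed interferon level was at 5.03 to 5.59 on the first 3 STAT6-KO spleen arrays and at 7.53 at 4 weeks. At 4 weeks it lay above WT in both tissues, at 7.53 against 6.49 in spleen and at 6.97 against 5.42 in bone marrow. The part of these lists in the values of the 10 genes was not tested. Each genotype of a tissue lay on a slide of its own, so slide and genotype cannot be told apart.

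**Figure D5:**
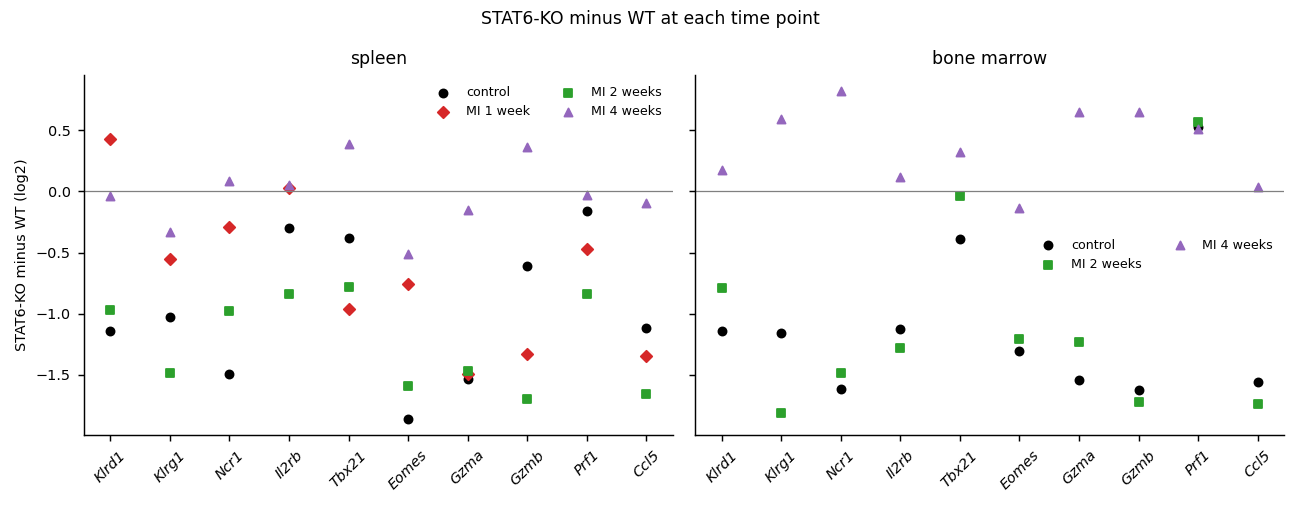
STAT6-KO minus WT (log2) for each of the 10 genes at each time point with both arrays, spleen on the left and bone marrow on the right, 1 difference between 2 arrays per point. In control and at 2 weeks most points lie below 0, while at 4 weeks they lie around 0 in spleen (median -0.03) and mostly above 0 in bone marrow (median 0.42); Prf1 in bone marrow stays at 0.51 to 0.57.

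The fourth comparison set HDC-KO against WT. In spleen 6 of the 10 genes were above and 4 below WT, from -0.50 (Gzmb) to 0.51 (Il2rb), with a median of 0.03 beside 0.06 over all genes. In bone marrow 4 were above and 6 below, from -0.36 (Ccl5) to 0.50 (Klrd1), with a median of -0.12 beside -0.01. None of the 10 genes was called in either tissue, where 2.8% and 0.443% of all genes were. Il2rb in spleen was above WT at 3 of 3 time points (0.38 to 0.69), and Klrd1 in bone marrow at 4 of 4 (0.22 to 0.83). The medians at single time points stayed between -0.39 and 0.23, a narrower span than in STAT6-KO.

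Of the further genes 1 of 53 rose in HDC-KO spleen (limma), 1.89% of the list beside 2.8% of all genes called, so nothing is read from the count. It was Gata3, higher by 1.43 ± 0.26 (adjusted p = 0.035) at 3 of 3 time points. In HDC-KO bone marrow 0 of 51 were called (14 at an unadjusted p under 0.05, limma). The call of Gata3 was lost when any 1 of the 3 time points was left out. T cell markers moved the same way in HDC-KO spleen, where 9 of 10 lay above WT (median 0.94) and 3 were called. Interferon-induced genes lay below WT in HDC-KO in spleen and bone marrow in the fit (6 of 6 in each, medians -1.85 and -1.21). In bone marrow their summed level lay below WT at 1 week (4.78 against 7.92) and at 2 weeks (5.09 against 6.48) alone. The part of these lists in the Gata3 value was not tested.

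Whether the genotypes acted differently in the 2 tissues was tested on the further genes, as the difference of the paired tissue differences. Of 53 genes 0 were called for STAT6-KO (10 at an unadjusted p under 0.05, limma) where 1.2% of all genes were, and 1 for HDC-KO, Cd247, where 1.78% of all genes were. Cd247 was not well above background on any WT or HDC-KO bone marrow array.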

How the data were processed

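RNA of CD11b+ cells from spleen and bone marrow was labelled with Cy3 and hybridised to 1-colour 4x44K arrays, 1 per condition. The 4 time points of a genotype and tissue shared 1 of 6 scan dates, and arrays of the same scan date were taken as a slide. The position on the slide was read from the barcode in the header. The authors read the arrays with Agilent Feature Extraction 11.0.1.1, and the deposited values are spot intensities on a linear scale after background subtraction, not normalized between arrays. Genespring, which the methods name for later steps, was not used here. Of 24 arrays 22 were complete. From the deposited intensities, log2 values were taken, and each array was scaled by subtracting its 75th percentile over all noncontrol spots. Spots marked as outliers (3055) were left out, and 0 were saturated. Probes were named through their RefSeq transcript, which gave 27234 of 39429 probes a symbol (20659 genes). A gene with more than 1 probe was given by its brightest on average.

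Fits used limma 3.58.1 in R 4.3.3 on all genes well above background on at least 2 arrays of the fit, with Benjamini-Hochberg adjustment over all of them. Tissues were compared with the genotype and time combination as a block, and genotypes and times with additive terms, so that the error is the variation of an effect between conditions and not between replicates. Tables were made with pandas 2.3.3 and numpy 2.4.6. The fits were tested on simulated data. The members and all gene lists were chosen with earlier results of these data known. Named are all 10 genes, up to 4 further genes per direction and comparison, and the 8 most similar genes. The further genes Klrc2, Klra3 and Il12b and the markers Ly6g and Mx1 matched no probe by symbol, Cd244 was measured as Cd244a, and Tigit and Il21 could not be fitted in bone marrow alone. Alternatives were normexp (offset 50, on median signals), quantile, median and common-probe scaling, a floor, the mean over probes, other filters, the methods' t-test, the fit without the block, slide as a random block, single weeks, 2 genotypes alone and leaving out each condition. Protein sequences were not used here.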

Additional observations from a re-analysis of the deposited data

Results flagged for a closer look

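Prf1 was lower in STAT6-KO spleen at 4 of 4 time points (mean -0.38 on the log2 scale) and higher in STAT6-KO bone marrow at 3 of 3 (mean 0.54). In spleen the differences ran from -0.84 to -0.03, and the one nearest to WT was that at 4 weeks. As Prf1 is among the genes chosen with their values known, this difference was not tested.

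Cd247 was called for a different HDC-KO effect in the 2 tissues, with a fitted value of 2.50 ± 0.43 (spleen minus bone marrow, log2 scale; limma, adjusted p = 0.045). HDC-KO was above WT at 3 of 3 time points in spleen, although the WT array at 1 week was not well above background. No WT or HDC-KO bone marrow array was well above background for Cd247, so no direction is given there and the size of 2.50 rests partly on background signal.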

How the results depend on the processing

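With 1 array per condition, every error here is the variation of an effect between conditions, and arrays limit precision by their number. Over 7 comparisons the median difference of the 10 genes was recomputed under 111 alternatives and moved by less than the spread between pairs in 98. For spleen against bone marrow it ranged from 2.64 (normexp, which moved it beyond that spread) to 3.31, and the fit without the replicate block (3.22, with 38 further genes called) and slide as a random block (3.23, with 37) changed no call in number beyond 1.5 times.

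For HDC-KO in spleen the median was -0.13 with median scaling, 0.13 in the methods' t-test, 0.097 with only the 2 genotypes and -0.017 to 0.097 when each time point was left out. The further genes called there were 0 with normexp, 0 and 0 in the methods' t-test (at their threshold and after Benjamini-Hochberg), 2 with scaling to probes well above background on all arrays, 7 with only the 2 genotypes, and 0 to 1 when each time point was left out. For STAT6-KO in spleen they were 1 at the threshold of the methods' t-test and 0 to 1 with a time point left out. For STAT6-KO in bone marrow they were 1 and 1 in the methods' t-test, 0 with only the 2 genotypes, and 0 to 2 with a time point left out.

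For time after MI in spleen the median was 0.33 with median scaling, 0.32 in the methods' t-test, 0.052 without the STAT6-KO spleen array at 4 weeks and 0.071 to 0.19 with a genotype left out. It was -0.66 at 1 week alone, a reversal of the average, with 10 further genes called, and 0.70 and 0.68 at 2 and 4 weeks alone. In bone marrow at 1 week alone it was -0.78, with 1 further gene called. Single genes also changed sign. Where the average exceeded its spread between pairs, in spleen at 1 week alone Klrg1 was -0.55, Il2rb -1.01, Tbx21 -0.92, Gzma -0.73 and Ccl5 -0.59, and Ccl5 was -0.042 with quantile scaling and -0.10 without the STAT6-KO array at 4 weeks. In bone marrow Prf1 was -0.037 at 2 weeks alone, and for HDC-KO with normexp Klrd1 was -0.00127 and Tbx21 -0.022. Averages within that spread changed sign too, and at 1 week alone Ncr1 was -0.56 in spleen, and in bone marrow Ncr1 was -1.03, Il2rb -0.74, Gzmb -0.70 and Tbx21 -0.39. The causes were not tested.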
